A study of Mus musculus with 43 samples.

Results

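Glutathione peroxidases reduce hydrogen peroxide and lipid peroxides with glutathione as the electron donor. The genes followed here are the 8 mouse peroxidase genes (Gpx1 to Gpx8), Lrp8, which encodes a receptor for selenoprotein P, and Secisbp2, which encodes the protein that binds the selenocysteine insertion element of selenoprotein messages. They were taken from the table by gene symbol, and each of the 10 symbols matched 1 of 54532 gene IDs. The table gives TPM, an abundance scaled to transcript length and to a fixed total per column, so levels of different genes can be set side by side within a segment.

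The samples were S1, S2 and S3, the successive parts of the proximal tubule, dissected by hand from kidneys of female C57BL/6 mice aged 6 to 8 weeks, with no treatment named and 2 to 5 tubules per sample. S1 and S2 have 6 RNA-seq libraries each and S3 has 7, for which the table holds 1 value per gene and segment. No spread between libraries can therefore be given, the depth is unknown, and every difference below compares single values and carries no test. Read as animals, which the labels do not state, the numbers in the titles give S1 and S2 no animal in common, so segment and animal cannot be told apart in that comparison.

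The kidney is the main source of the secreted peroxidase in blood plasma, and proximal tubule cells are where it is made. Selenium reaches these cells largely as selenoprotein P, which is filtered and taken up by the endocytic receptor megalin (Lrp2), a relative of Lrp8. Inside the cell the selenium is built into selenocysteine, the residue at the active site of Gpx1, Gpx2, Gpx3 and Gpx4. In the mouse, Gpx5, Gpx6, Gpx7 and Gpx8 have cysteine there instead.

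The segment markers set S1 apart. The S2 markers separated S2 clearly from S3, while most of the S3 markers differed by less than 2-fold between these segments. Each of the 7 S1 markers, Slc5a2 and Gatm among them, was highest in S1. The 3 S2 markers were highest in S2, and 6 of the 7 S3 markers in S3. From S2 to S3, Slc22a6 went from 216.8 to 1.0 TPM, Slc13a3 from 226.8 to 1.1 and Slc22a8 from 349.1 to 0.7. The S2 marker Slc22a8 was close in S1 and S2, at 297.3 and 349.1 TPM. Of the S3 markers, 1 of 7, Cyp7b1, was at least 2-fold lower in S2 than in S3, and their sum was 18.8, 3069 and 5442 TPM. Among general proximal tubule markers, Hnf4a, a transcription factor of these cells, was under 2-fold apart between segments, while Aqp1 (33.0, 383 and 561 TPM) and Slc27a2 (611, 4180 and 5476 TPM) were lower in S1. Several lists of markers of other cells were highest in S2. The TPM of 8 endothelial markers summed to 69.5 in S1, against 650 in S2 and 259 in S3, and that of 8 immune markers to 56.6, 287 and 94.7, although Csf1r among them was highest in S3. The 5 markers of the thick limb and distal tubule were highest in S3 by their sum (2.00, 24.1 and 33.5 TPM), and the 6 of the collecting duct in S1 (28.8, 6.90 and 0.600 TPM), where Aqp3 alone gave 28.3. Gene counts past a threshold, given below, are set against the 16053 genes that reached 1 TPM in any segment.

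The promoters of the genes whose levels differed most between S1 and S3 are shown for the regions where their transcripts start. Sequences are from RefSeq (GRCm38.p6), which held windows for 10 of 10 members, 15 in all. Each window reads 5′ to 3′ on the gene's strand, from 250 bases before the start site to 50 after it, so that the start site is base 251. Capitals mark matches to a motif searched on both strands. Gpx3 lies on chromosome 11 (54902854 to 54910387), Gpx1 on chromosome 9 (108339080 to 108340342) and Lrp8 on chromosome 4 (107802200 to 107876840). The Lrp8 window shown is the first of 3 listed for that gene. The windows are chr11:54902604-54902903 for Gpx3, chr9:108338830-108339129 for Gpx1 and chr4:107802635-107802934 for Lrp8, each on the plus strand.
Gpx3: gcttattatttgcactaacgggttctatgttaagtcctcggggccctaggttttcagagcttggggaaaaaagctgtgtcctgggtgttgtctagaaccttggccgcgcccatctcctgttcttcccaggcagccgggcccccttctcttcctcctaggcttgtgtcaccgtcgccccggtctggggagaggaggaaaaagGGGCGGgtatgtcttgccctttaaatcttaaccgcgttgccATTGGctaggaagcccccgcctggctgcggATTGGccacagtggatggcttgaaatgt
Gpx1: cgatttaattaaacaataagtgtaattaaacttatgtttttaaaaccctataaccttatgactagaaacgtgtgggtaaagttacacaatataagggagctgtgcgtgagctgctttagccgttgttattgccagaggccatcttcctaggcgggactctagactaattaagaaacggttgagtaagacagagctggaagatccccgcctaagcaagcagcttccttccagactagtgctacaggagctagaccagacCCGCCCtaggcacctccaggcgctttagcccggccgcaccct
Lrp8: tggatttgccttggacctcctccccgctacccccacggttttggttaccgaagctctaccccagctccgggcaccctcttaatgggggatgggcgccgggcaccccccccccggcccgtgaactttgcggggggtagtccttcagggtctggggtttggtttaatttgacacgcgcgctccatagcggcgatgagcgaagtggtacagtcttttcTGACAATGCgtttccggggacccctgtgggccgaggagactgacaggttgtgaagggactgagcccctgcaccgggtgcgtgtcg

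In the Gpx3 window a GC box (GGGCGG) covers bases 202 to 207, and a CCAAT box stands in reverse at bases 243 to 247 and again at 273 to 277. The Gpx1 window has a GC box in reverse at bases 259 to 264 and no CCAAT box. In the Lrp8 window bases 216 to 224 match the core of the antioxidant response element (TGACNNNGC), and that was the sole match to this core in the 15 windows of the members. No match overlapped another in these 3 windows. Across 32851 promoters of the same length, 37.4% held a CCAAT box, 35.7% a GC box and 12.4% the antioxidant core. None of the 15 windows held a TATA box (TATAAA) or the HNF4 repeat searched (CAAAGTCCA), which 13.6% and 0.475% of all promoters held. The GC content was 56.3% for Gpx3, 47.0% for Gpx1 and 62.7% for Lrp8, against a median of 52.7% over all promoters. The Gpx3 and Gpx1 windows thus lay on either side of that median.

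Gpx3, the secreted plasma peroxidase, was the most abundant member in every segment. It stood at 114421 TPM in S1, then 12746 in S2 and 3489 in S3. It ranked first among all genes in S1, where the next gene, mt-Cytb of the mitochondrial genome, was at 16706 TPM, and was 7th in S2 and 30th in S3. Its level was 8.98-fold higher in S1 than in S2, 3.65-fold higher in S2 than in S3 and 32.8-fold higher in S1 than in S3. On the log2(TPM + 1) scale used for all differences below, these steps were 3.17, 1.87 and 5.04. Of 16053 genes, 87 had a greater difference for S1 minus S2 and 75 for S1 minus S3.

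Gpx1, the cytosolic peroxidase found in most cells, was also highest in S1 and lowest in S3, but along another course. It stood at 6258 TPM in S1, against 3617 in S2 and 819 in S3, and ranked 14th, 29th and 151st. The step from S1 to S2 was 1.73-fold (0.79) and the step from S2 to S3 was 4.42-fold (2.14). With S3 set at 0 and S1 at 1 on the log2 scale, S2 lay at 0.730 for Gpx1 and at 0.371 for Gpx3. For Gpx3 the greater step was thus between S1 and S2, and for Gpx1 between S2 and S3.

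Gpx4, the peroxidase that reduces phospholipid peroxides within membranes and guards cells against ferroptosis, did not follow them. Its level was 937 TPM in S1, then 958 in S2 and 1303 in S3. S1 and S2 were nearly alike, and S3 was 1.36-fold above S2 and 1.39-fold above S1 (differences -0.44 and -0.47), short of 2-fold. A Gpx4 pseudogene, Gpx4-ps2, was listed at 107.4, 113.4 and 147.9 TPM. That is 11.5%, 11.8% and 11.4% of Gpx4, a near constant share. Reads that fit both copies may have been divided between them, which makes the split uncertain, but the sum of the 2 gave the same differences for S2 minus S3 (-0.44) and S1 minus S3 (-0.47).

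**Figure D1:**
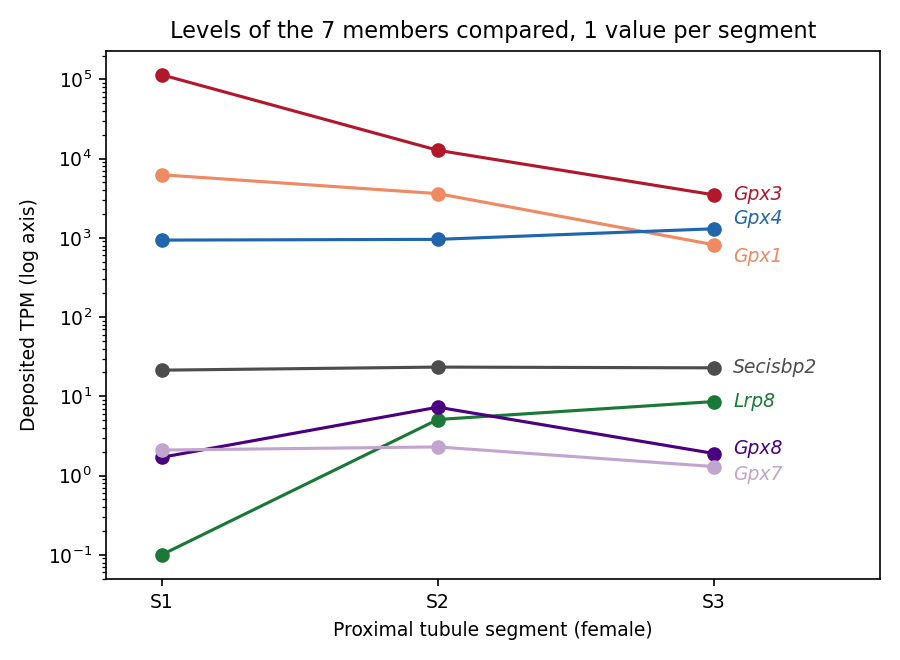
Deposited TPM (log axis) of the 7 members with at least 1 TPM in 1 or more of the female segments S1, S2 and S3; each point is the single value of a segment, with no error bar, and lines join the segments of 1 gene. Gpx3 goes from 114421 to 3489 and Gpx1 from 6258 to 819, so that Gpx1 starts above Gpx4 and ends below it.

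The order of Gpx1 and Gpx4 was therefore turned along the tubule. Gpx1 was 6.68 times Gpx4 in S1, 3.78 times in S2 and 0.629 times in S3. Of the summed TPM of the 8 peroxidases, Gpx3 held 94.1% in S1, against 73.5% in S2 and 62.1% in S3. Gpx1 held 5.15%, 20.9% and 14.6%, and Gpx4 0.771%, 5.53% and 23.2%. Without Gpx3, Gpx1 held 86.9% of the remaining peroxidase TPM in S1 and 38.5% in S3, while Gpx4 held 13.0% and 61.3%. The sum of all 8 was 121621 TPM in S1, then 17331 in S2 and 5614 in S3, a 21.7-fold range. Without Gpx3 the sums were 7199, 4585 and 2125 TPM, a 3.39-fold range. S1 thus had the greatest peroxidase message on both counts, and S3 had the most even mix of the 3 abundant genes.

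**Figure D2:**
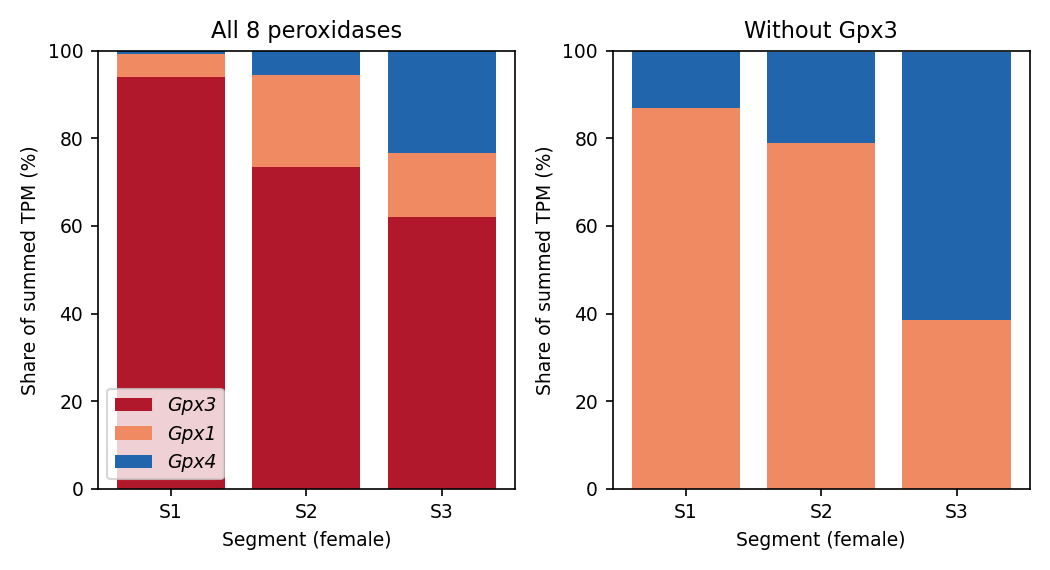
Share (%) of the summed peroxidase TPM held by Gpx3, Gpx1 and Gpx4 in the female segments S1, S2 and S3, for all 8 peroxidases (left) and without Gpx3 (right); the other 5 peroxidases together are too low to be seen. Gpx3 holds 94.1% in S1 and 62.1% in S3, and on the right Gpx4 goes from 13.0% to 61.3%.

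The other 5 peroxidases were low. Together they summed to 4.0 TPM in S1, against 10.4 in S2 and 3.30 in S3. Gpx8, a membrane-bound enzyme of the endoplasmic reticulum, was at 1.7 TPM in S1, then 7.3 in S2 and 1.9 in S3. It was 4.29-fold higher in S2 than in S1 and 3.84-fold higher than in S3 (differences -1.62 for S1 minus S2 and 1.52 for S2 minus S3), so S2 stood apart and S1 and S3 were nearly alike. Gpx7, its soluble relative in the same compartment, was at 2.1, 2.3 and 1.3 TPM, less than 2-fold apart in each comparison. Gpx8 was highest in S2, as were several lists of markers of other cells. The 8 stromal and mural markers summed to 2.30 TPM in S1, against 20.0 in S2 and 2.00 in S3. Of these, 8 of 8, as of the endothelial markers, were highest in S2, although Col1a1, Acta2 and Myh11 were below 1 TPM in each segment. The 5 podocyte markers were also each highest in S2. The share of all genes with an S2 peak was not computed, so these counts have no background. The S2 column also stood apart as a whole: mitochondrially encoded genes took 16.0% of its TPM, against 6.50% in S1 and 9.72% in S3, and 15121 genes reached 1 TPM, against 12174 and 12873. The part of these in the Gpx8 result was not tested. In such bulk samples, fewer cells of a type and less RNA per cell cannot be told apart.

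**Figure D3:**
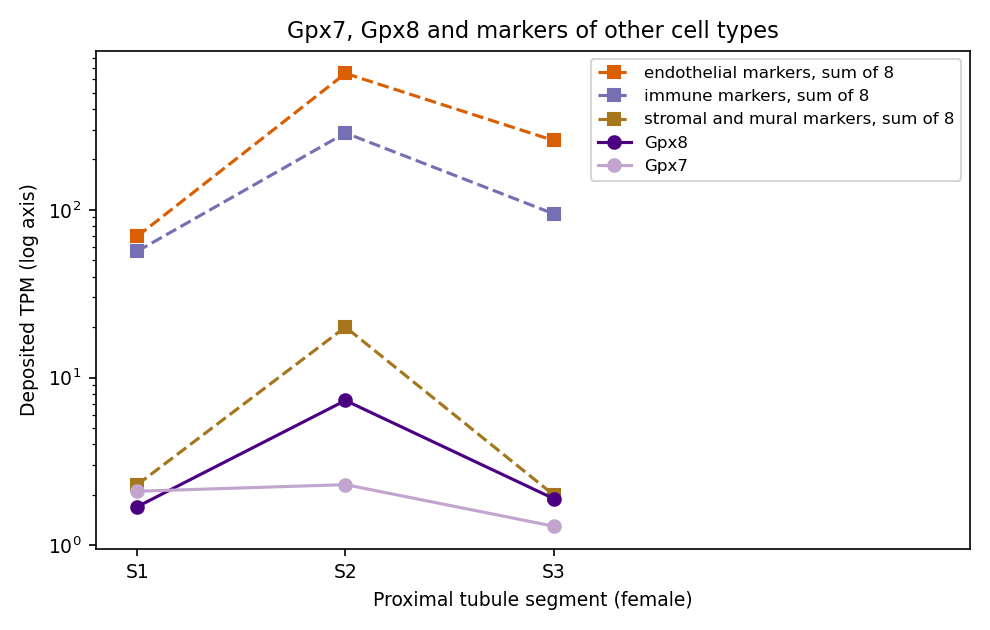
Deposited TPM (log axis) of Gpx8 and Gpx7 (circles) and the summed TPM of 8 endothelial, 8 immune and 8 stromal and mural markers (squares, dashed) in the female segments S1, S2 and S3, 1 value per segment. Gpx8 (1.7, 7.3 and 1.9) peaks in S2 as the 3 marker sums do, while Gpx7 stays between 1.3 and 2.3.

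Gpx2, the peroxidase of the gut epithelium, was listed at 0, 0.2 and 0 TPM. Gpx5, known from the epididymis, was at 0.1, 0.4 and 0.1, and Gpx6, known from the olfactory epithelium, at 0.1, 0.2 and 0. These 3 were below 1 TPM in each segment and entered no comparison. Gpx5 (21286429 to 21292727) and Gpx6 (21295465 to 21319625) are neighbours on chromosome 13, where Gpx8 (113042757 to 113046430) also lies. Gpx8 is overlapped by Cdc20b, which was listed at 0 in each segment. Lrp8os2, which overlaps Lrp8, was at 0.1, 0.2 and 0.1 TPM, and Gm11270, which overlaps Gpx6, at 0.1, 0.1 and 0.0. Most of Gpx7 on chromosome 4 (108400217 to 108406713) is overlapped by Gm32297 (108383223 to 108406608), for which no value was found under that symbol. The library protocol names no strand marking, so reads of overlapping genes cannot be assigned by strand.

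Turning to selenium supply, Lrp8 (also called apolipoprotein E receptor 2) went opposite to Gpx3 and Gpx1. It was at 0.1 TPM in S1, then 5.1 in S2 and 8.6 in S3. The differences were -2.47 for S1 minus S2, -0.65 for S2 minus S3 and -3.13 for S1 minus S3, so S1 stood apart from the other 2 segments. The size rests on the pseudocount: with 0.1 in place of 1 the differences were -4.70, -0.74 and -5.44. With values given to 1 decimal, rounding alone allows -3.20 to -3.05 for S1 minus S3. No fold is given against so low an S1 value. Of the 5 markers of the thick limb and distal tubule, 2 ran a like course. Umod, the uromodulin gene of the thick limb, was at 0.2, 21.1 and 29.1 TPM, and Slc12a3, the sodium chloride cotransporter of the distal tubule, at 0.7, 2.0 and 3.0. The other 3 of these 5 markers were at 1.0 TPM or less and did not rise at both steps. Slc12a1 was at 0.4, 0.3 and 1.0 TPM, Pvalb at 0.1, 0.2 and 0.0, and Calb1 at 0.6, 0.5 and 0.4. The 7 markers of S3 itself also rose by their sum (18.8, 3069 and 5442 TPM), although Acsm3 among them was highest in S2. The part of either marker list in the Lrp8 result was not tested.

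Lrp2 (megalin) was far above Lrp8 in each segment, at 143 TPM in S1, against 228 in S2 and 259 in S3. In S2 it was 44.8 times and in S3 30.1 times the Lrp8 level. Its difference for S1 minus S3 was -0.85, the same direction as Lrp8 but under 2-fold. Lrp11, a related receptor, went the other way, at 12.0, 3.1 and 3.6 TPM. Selenop, which encodes selenoprotein P itself, was at 1341 TPM in S1, then 661 in S2 and 732 in S3. It was above Lrp2 in each segment and highest in S1 (1.02 for S1 minus S2), but under 2-fold there with quantile normalization or with rescaling without mitochondrial genes, Gpx3 and Kap, an androgen-regulated kidney gene abundant in S2 and S3.

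Secisbp2 hardly differed between segments, with 21.4 TPM in S1, against 23.4 in S2 and 22.9 in S3. The widest of its differences was -0.12, for S1 minus S2. Of 8 further genes of selenocysteine synthesis, insertion and recycling, 7 were highest in S1. The share of all genes with an S1 peak was not computed, so this count has no background. Of the 8, 1 alone, Sephs2, passed 2-fold, for S1 minus S2 and for S1 minus S3. Over all genes, 6.62% and 10.5% were higher by that measure in these comparisons. A count of 1 in 8 does not set the list apart from all genes. Scly, the lyase that releases selenium from selenocysteine, was one of the 7 by a small margin, at 62.7 TPM in S1 and 62.1 in S3. Sephs2, the selenophosphate synthetase that is itself a selenoprotein, was at 390 TPM in S1, then 188 in S2 and 183 in S3. With rescaling without mitochondrial genes, Gpx3 and Kap it did not pass 2-fold for S1 minus S2. Secisbp2l, a relative of Secisbp2, was the exception to the S1 peak, at 10.2, 15.9 and 16.9 TPM. The list's median difference was 0.31 for S1 minus S2, -0.01 for S2 minus S3 and 0.40 for S1 minus S3, beside medians of -0.18, 0.12 and -0.01 over all genes.

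Each comparison set 3 of the 7 members at least 2-fold apart. Among the 7 members that passed the filter, Gpx3 was higher by 2-fold or more for S1 against S2, and Gpx8 and Lrp8 were at least 2-fold lower. Over all genes 6.62% were higher and 17.7% lower by that measure. The split depends on scaling: 27.2% of the genes past 2-fold were higher in S1, and 44.6% with quantile normalization. From S2 to S3, 3 members were at least 2-fold higher in S2 (Gpx1, Gpx3 and Gpx8) against 8.74% of all genes, and 0 were lower against 2.24%. Of the genes past 2-fold there, 79.6% were higher in S2, and 63.1% with quantile normalization. Between the ends of the tubule, Gpx1 and Gpx3 were higher in S1 (10.5% of all genes) and Lrp8 was lower (13.1%). The median difference of the 7 members was -0.09 for S1 minus S2, 0.52 for S2 minus S3 and -0.09 for S1 minus S3. These comparisons share columns with each other and are not independent.

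**Figure D4:**
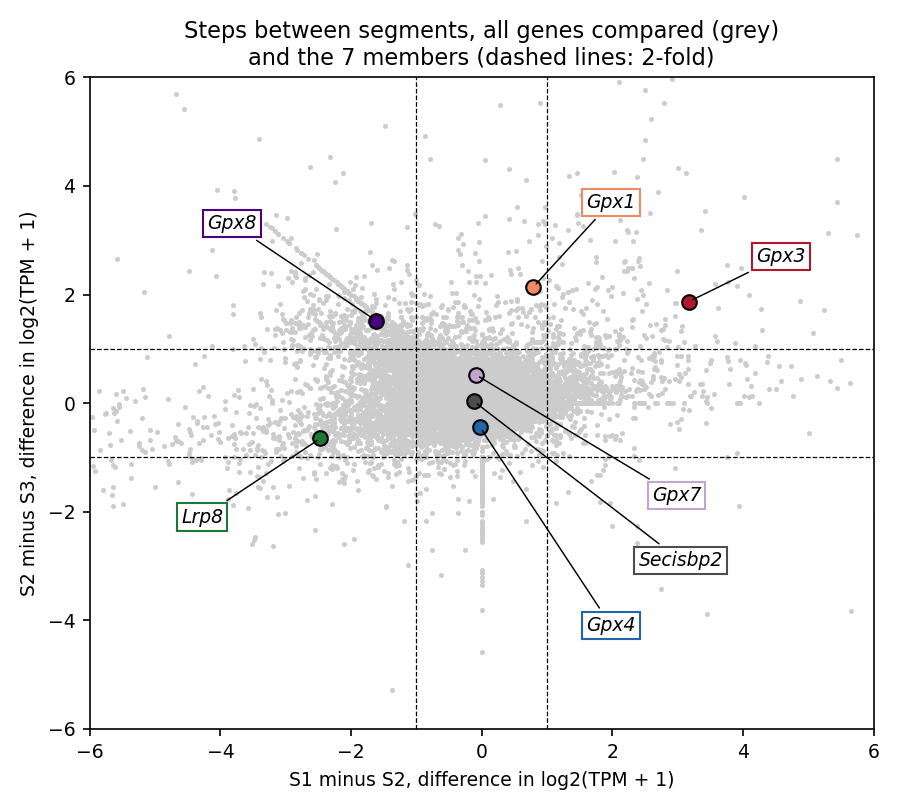
Differences in log2(TPM + 1) for S1 minus S2 (horizontal) and S2 minus S3 (vertical) of the genes compared (grey) and the 7 members (coloured), with dashed lines at 2-fold; 58 genes lie beyond the axis limits of 6. Gpx3 (3.17, 1.87) is past 2-fold in both steps, Gpx1 (0.79, 2.14) in the second, Lrp8 (-2.47, -0.65) in the first, and Gpx8 (-1.62, 1.52) peaks in S2.

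Gpx3 also dominated the selenoprotein messages as a whole. The 24 selenoprotein genes of the mouse, Gpx1 to Gpx4 among them, made up 12.5% of the TPM total in S1, against 1.95% in S2 and 0.782% in S3. Of that sum Gpx3 held 91.8% in S1, then 65.4% in S2 and 44.6% in S3. Without Gpx3 the sums were 10264, 6747 and 4331 TPM, and the 20 genes that are not peroxidases summed to 3068, 2173 and 2209 TPM, a 1.41-fold range. Of the 21.7-fold range of the peroxidases, 3.39-fold was left without Gpx3. The narrow range of the 20 genes is one of sums, and single genes among them ranged more widely.

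Of these 20 genes, 17 passed the filter. For S1 minus S3, 3 were at least 2-fold higher (Selenow, Msrb1 and Sephs2) and 1 lower (Selenoh), with a median of -0.10, against -0.01 over all genes. Selenow, a small selenoprotein with a thioredoxin-like fold, came nearest to Gpx3, at 152 TPM in S1, against 26.9 in S2 and 7.6 in S3 (a difference of 4.15). Msrb1, a methionine sulfoxide reductase, was at 56.6, 36.0 and 25.7 TPM. Selenoh, a nucleolar selenoprotein, was the opposite at 20.3, 26.1 and 41.9 TPM (-1.01). With rescaling without Gpx3 alone, Selenoh no longer passed 2-fold for S1 minus S3, and Selenop was added to the genes higher in S1. That setting gave 4 higher and 0 lower, with a median of 0.07. Txnrd1 and Txnrd2, thioredoxin reductases, were highest in S3 as Gpx4 was: Txnrd1 was at 45.6, 68.0 and 72.0 TPM and Txnrd2 was at 44.7, 49.8 and 65.3. Dio1, the deiodinase that activates thyroid hormone, was highest in S2 (188, 266 and 158 TPM).

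**Figure D5:**
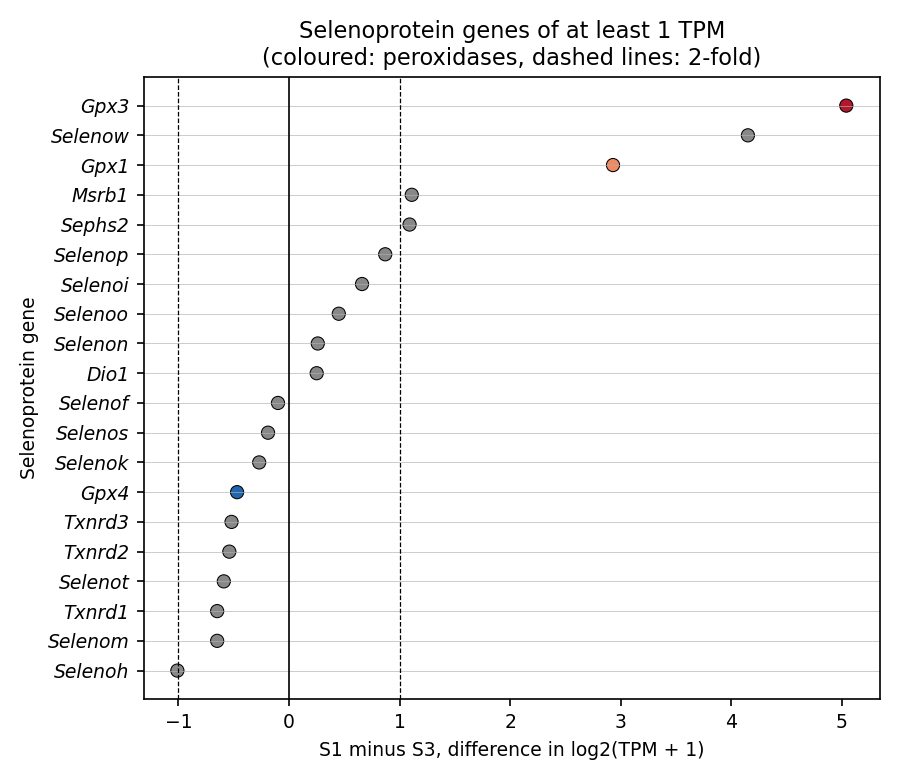
Difference in log2(TPM + 1) for S1 minus S3 of the 20 selenoprotein genes with at least 1 TPM in 1 or more female segments, ordered by value; coloured points are Gpx3, Gpx1 and Gpx4, grey points the other selenoproteins, and dashed lines mark 2-fold. Gpx3 (5.04), Selenow (4.15) and Gpx1 (2.93) stand to the right of the rest, which lie between -1.01 and 1.11.

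Other enzymes of peroxide metabolism differed in both directions. For S1 minus S3, all genes compared had a median of -0.01, with 10.5% higher and 13.1% lower by 2-fold. Of 12 other peroxide and superoxide enzymes, 1 was higher in S1 by 2-fold or more against S3 and 2 were lower, with a median of -0.01. Prdx4, the peroxiredoxin of the endoplasmic reticulum, was the 1 that was higher (42.4, 35.9 and 8.4 TPM). Sod1, the cytosolic superoxide dismutase that makes hydrogen peroxide, was lowest in S1 (177, 606 and 795 TPM), and so was Txn1, cytosolic thioredoxin (248, 488 and 632 TPM). Catalase (Cat) was at 540, 495 and 292 TPM, and passed 2-fold with rescaling without Gpx3 alone. Gsr, which regenerates the glutathione that peroxidases oxidise, was at 93.7, 116 and 126 TPM, under 2-fold apart. Of the 8 genes of that reductase and of NADPH supply, 3 were higher in S1 by 2-fold or more against S3 and none lower (median 0.71), and 4 with rescaling without Gpx3 alone, which added Taldo1. Idh1, the cytosolic NADP-linked isocitrate dehydrogenase, was at 1014, 218 and 23.1 TPM, Idh2, its mitochondrial relative, at 762, 199 and 111, and Nnt, the mitochondrial transhydrogenase, at 83.0, 35.7 and 28.9.

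Genes that act around Gpx4 in lipid peroxidation were mixed. Of 7 that passed the filter, 2 were higher in S1 by 2-fold or more against S3 and 1 lower (median 0.53), beside the same shares and median of all genes. With rescaling without Gpx3 alone 3 were higher, Dhodh being added. Slc3a2, the heavy chain shared by several amino acid exchangers, was at 1161, 95.1 and 42.6 TPM. Its light chain for cystine uptake, Slc7a11, was at 0.2, 0.6 and 0.2 TPM and did not pass the filter. Acsl4, which makes membrane lipids prone to peroxidation, was at 7.6, 3.4 and 2.0 TPM. Aifm2 (FSP1), which limits lipid peroxidation independently of Gpx4, was at 13.0, 23.7 and 30.9 TPM, higher in S3 as Gpx4 was. The 7 disulfide enzymes of the endoplasmic reticulum, the compartment of Gpx7 and Gpx8, had 0 members 2-fold apart in any comparison. Among all genes, 6.62% were higher and 17.7% lower by 2-fold for S1 minus S2. The shares were 8.74% and 2.24% for S2 minus S3, and 10.5% and 13.1% for S1 minus S3. P4hb, a protein disulfide isomerase, was at 376, 483 and 539 TPM.

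Among the 1651 genes searched, which reached 100 TPM in any segment, those nearest to Gpx3 in the plane of both steps were Ttr, Lgals3bp, Slc4a4, Selenow and Rnf183. The distance is Euclidean on the log2(TPM + 1) scale, over 3 segments. Ttr (transthyretin) was nearest at 0.192, with 185 TPM in S1, then 22.6 in S2 and 5.6 in S3. Selenow lay at 0.730. Nearest to Gpx1 were Ifitm2 (0.0716, with 256, 150 and 34.9 TPM), Cpn1, Gsta2, Ephx2 and Cmbl. Gsta2, a glutathione transferase, lay at 0.352, with 1300.0 TPM in S1, against 588 in S2 and 132 in S3. The distances to Gpx1 were shorter than those to Gpx3, 0.512 against 0.794 for the fifth gene. Likeness over 3 values is a description of these columns.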

How the data were processed

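Of 43 labelled samples, 19 are RNA-seq libraries of female tubules; the other 24, from ATAC-seq, were left out. Libraries were made with a poly(A)-primed SMARTer kit and tagmentation, per the labels' protocols. Per the submitters' processing notes, the build was mm10 and the tools named include STAR and RSEM. The authors deposited 1 TPM value per gene and segment, to 1 decimal; no source used here says how libraries were combined. The columns sum to 999907 (S1), 999988 (S2) and 999911 (S3). TPM keeps no depth, so no interval was computed. The 3 female columns were used; 5 other value columns (3 with no labelled RNA-seq samples, a maximum and a minimum) were set aside.

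Differences are of log2(TPM + 1), with a pseudocount of 1 that understates the change of low genes, over the 16053 genes that reached 1 TPM in any segment. At least 2-fold (a difference of 1) was counted. Ratios of TPM were taken only between values of 1 or more. The code was tested on simulated data. Members and lists were chosen with earlier results of these data known. Genes named are the members, genes of the lists, and the 5 nearest to Gpx3 and to Gpx1 in both steps. Also named are genes among the 5 with the highest TPM in a segment, a Gpx4 pseudogene and genes that overlap a member. The CCAAT, GC and TATA motifs were added after the sequences were read. A marker gene, a motif and a receptor list that were also examined are not reported here. The lists of podocyte and erythroid markers summed to at most 16.7 and 0.200 TPM in any segment. Symbols shared by more than 1 ID took the ID with the higher mean. pandas 2.3.3 and numpy 2.4.6 were used.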

Additional observations from a re-analysis of the deposited data

How the results depend on the processing

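Each comparison was repeated with a pseudocount of 0.1, with no filter, with a filter of TPM 5, with median-of-ratios scaling, with quantile normalization, and with columns rescaled without mitochondrially encoded genes, Gpx3 and Kap or without Gpx3 alone. The counts of members past 2-fold, and the members themselves, were the same under these 7 settings in the 3 comparisons. The difference of Gpx3 for S1 minus S3 ranged from 4.71 to 5.21, that of Gpx1 from 2.87 to 3.10, and that of Lrp8 from -5.44 to -3.09, its widest value coming with the smaller pseudocount. In these settings 8 differences of single members changed sign, each under 2-fold, and that of Secisbp2 for S2 minus S3 came to 0 with quantile normalization. Gpx4 for S1 minus S2 went from -0.03 to 0.13 when columns were rescaled without Gpx3, so no direction is given for it between S1 and S2. The others were in Gpx7, Gpx8 and Secisbp2. Gpx3 takes 11.4% of the TPM total in S1, which lowers the other genes there: rescaling without it moved the median of all genes for S1 minus S2 from -0.18 to -0.04. Quantile normalization moved that median to 0.09, and rescaling without mitochondrial genes, Gpx3 and Kap to -0.34. The 24 selenoproteins without Gpx3 were 2.27 to 2.67 times higher in S1 than in S3 under these settings. The rounding limits of Gpx7, Gpx8 and Lrp8 were added after seeing the data and changed no call. No paired analysis was possible because the table holds 1 value per segment, and for the same reason no library could be left out.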
